A study of Arabidopsis thaliana with 8 samples.

Results

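The effect of 4 mM salicylic acid on Arabidopsis thaliana leaves (wild type, strain Columbia-0) was read gene by gene on Affymetrix arrays, against leaves of untreated plants. The members were chosen by treatment label alone: the 2 salicylic acid and the 2 untreated arrays, 4 of the 8 arrays of the series, with the 22746 probe sets left of 22810 after 64 control probe sets were set aside. In every group the plants were 4 weeks old at treatment, carried no transgene or mutation named in the labels, and gave total RNA from whole, fully expanded leaves 4 days later. The other 4 arrays, from leaves given 4 mM clothianidin or 4 mM imidacloprid, both neonicotinoid insecticides, entered here as part of the estimate of the spread and as values set beside the salicylic acid values. The plants came from 2 independent experiments, each of which gave 1 array to a group, and the labels do not say whether the same replicate number stands for the same experiment. No mock treatment is stated for the untreated plants, so handling and solvent cannot be told apart from salicylic acid.

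Salicylic acid is the plant hormone of defence against pathogens that feed on living cells. Perception through the NPR receptors lets TGA and WRKY transcription factors switch on defence genes, and glycosyltransferases, methyltransferases and hydroxylases later inactivate the hormone. In leaves it is also known for its part in senescence and for its antagonism with jasmonate, the hormone of wounding and insect defence.

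Values below are deposited log2 expression values per probe set, where a difference of 1 is 2-fold. Where 4 values are given for a gene, the first pair belongs to untreated replicates 1 and 2 and the second to salicylic acid replicates 1 and 2. The 25th percentile averaged 2.49 over the arrays, and lower values were treated as near background, and differences from such values have no exact size. A gene is named only where its probe set has a single gene in the annotation table and that gene matched a locus, which held for 13436 probe sets. Listed genes counted as measured were matched in this way, and others may still have a probe set on the array. In bulk leaf RNA, fewer cells of a type and less RNA per cell cannot be told apart.

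The labelled tissue was checked first. The 8 measured nuclear photosynthesis genes, markers of green leaf, lay between 9.58 and 14.72 on the 4 arrays. Of 9 markers of seeds, flowers and roots, PYK10 was the 1 measured here, a root-abundant beta-glucosidase, and its values were 5.92, 4.59, 9.09 and 4.49. It was thus high on salicylic acid replicate 1 alone. The actin 3′ minus 5′ control difference, a log2 measure of how far RNA is shortened, was 0.848 and 2.17 on the untreated arrays and 0.744 and 1.41 on the salicylic acid arrays. It was higher on replicate 2 in both groups, and its part in the results below was not tested.

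The 2 salicylic acid arrays stood at different distances from untreated leaves. Across the 22746 probe sets, which are not independent replicates, salicylic acid replicate 1 correlated with untreated replicates 1 and 2 at r = 0.971 and 0.973, closer than the untreated arrays to each other at 0.955. Salicylic acid replicate 2 correlated with them at 0.875 and 0.939, and with replicate 1 of its own treatment at 0.919. Its correlation with clothianidin replicate 2 was higher, at 0.969, and with the other insecticide arrays it was between 0.930 and 0.943. Taken within replicate number, which uses each array in a single difference, the differences from untreated leaves correlated at r = 0.316 over the same probe sets, and with the numbers crossed at r = -0.317. Whether the replicates look alike or opposed across the genome therefore turned on which untreated array each was set against. For that reason the comparison below sets each salicylic acid array against both untreated arrays.

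No gene differed between salicylic acid and untreated leaves past the threshold of a test over all probe sets. In limma's test, with a Benjamini-Hochberg adjusted p under 0.05 as threshold, 0 of 22746 probe sets were called (0.0%), the smallest adjusted p was 0.4, and limma with an intensity trend and a robust prior also called 0. At an unadjusted p under 0.05 there were 768 probe sets (3.38%), 343 higher (1.51%) and 425 lower (1.87%) with salicylic acid. The mean difference lay above 0 at 36.1% of all probe sets and below 0 at 63.9%, with a median of -0.02. Both salicylic acid arrays lay above both untreated arrays at 1884 (8.28%), with a median gap of 0.188 between the groups, and below them at 7888 (34.7%), with a median gap of 0.0135. Most of the latter were thus separated by very little, and 4147 of the 7888 averaged under the background value. An exact permutation test of 2 arrays against 2 cannot give a two-sided p below 0.333. The counts below are therefore descriptions of these 4 arrays.

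The 5 loci with the smallest p in each direction ranged from differences of under 1 to a difference of 5.34. AT3G08630, a locus without a gene name in the annotation, had 4.1, 4.2, 2.74 and 2.74, a difference of -1.41 (SE 0.08; limma adjusted p = 0.4). AT1G06420, AT5G25580 and AT1G65920 differed by -0.63, -0.88 and -0.66 at the same adjusted p in limma, and AT5G57970 by -1.34 (limma adjusted p = 0.468). In these 5 loci both salicylic acid arrays lay below both untreated arrays. Among higher values the smallest p belonged to AT1G65500, AT2G37130 and AT1G35210, described below, with differences of 5.34, 4.31 and 4.46, to AT3G19030, and to REV7, a subunit of a DNA polymerase that copies past lesions, with 4.35, 4.31, 4.81 and 4.90. AT3G19030 had 8.98, 8.59, 10.39 and 10.55, a difference of 1.68 (SE 0.27; limma adjusted p = 0.815).

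To state what both replicates share, a probe set was counted as higher or lower on both arrays when each salicylic acid array lay at least 1 log2 unit beyond both untreated arrays. It was counted for 1 replicate alone when that array passed the margin while the other stayed inside the range of the untreated arrays widened by 0.5. By these definitions 198 probe sets (0.87%) were higher on both arrays and 49 (0.215%) were lower on both. On replicate 1 alone, 113 (0.497%) were higher and 20 (0.0879%) were lower. On replicate 2 alone, 1350 (5.94%) were higher and 1304 (5.73%) were lower. A further 19326 passed the margin on neither array, 111 had the arrays on opposite sides, and the other 275 had 1 array past the margin and the other between.

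Replicate 1 thus held few differences and shared most of them, and replicate 2 held many and shared few. Of the 364 probe sets past the margin upward on replicate 1, 54.4% were also past it on replicate 2, while of the 1725 on replicate 2, 11.5% were past it on replicate 1. Downward, 57.0% of 86 on replicate 1 and 3.25% of 1508 on replicate 2 were shared. Among the 198 shared higher probe sets replicate 2 lay further from untreated leaves in 137, and among the 49 shared lower in 43. The margins just inside and just outside the definition were 1.00 and 0.995 upward and 1.00 and 0.990 downward.

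The counts leaned on single untreated arrays, since leaving an untreated array out loosens or shifts the condition. Without untreated replicate 1 the shared counts were 325 higher and 287 lower, and without untreated replicate 2 they were 774 and 735. The untreated arrays themselves lay at least 1 unit apart at 64 of the 198 shared higher probe sets and at 8 of the 49 shared lower. The counts for replicate 1 alone became 373 higher and 297 lower without untreated replicate 1, and 134 and 60 without untreated replicate 2. The lower count for replicate 2 alone became 851 without untreated replicate 1.

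**Figure D1:**
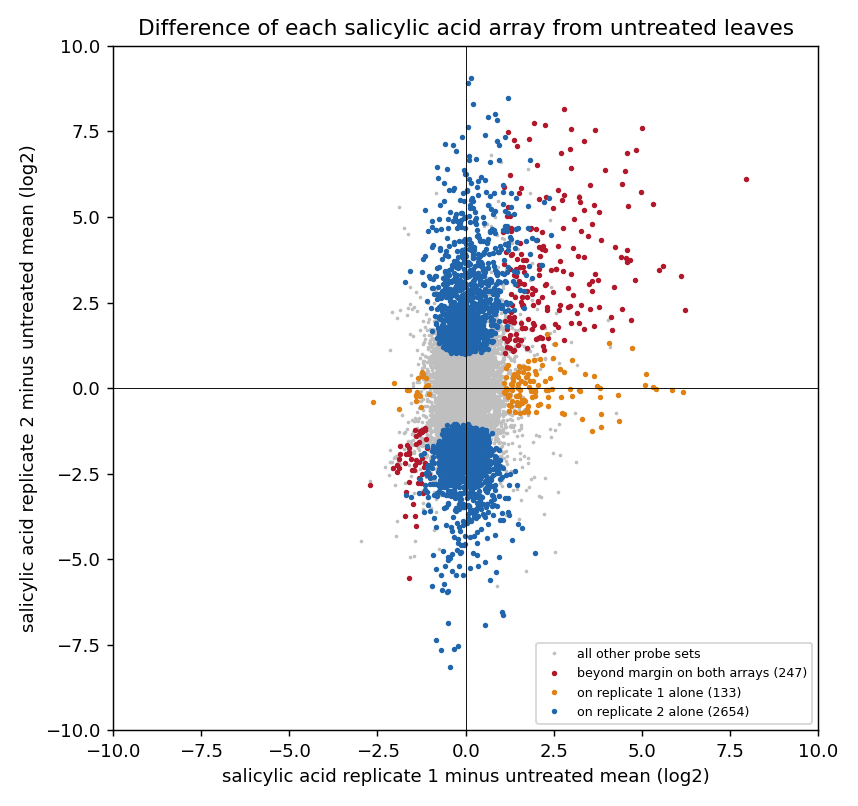
Each point is a probe set, with the log2 difference of salicylic acid replicate 1 from the untreated mean on the x axis and that of replicate 2 on the y axis. The 2654 points of replicate 2 alone run up and down beside x = 0, the 133 of replicate 1 alone lie beside y = 0, and the 247 shared points lie mainly to the upper right.

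Among the 198 shared higher probe sets, 89 had a single gene, at 88 loci, of which 15 carried a gene name. Unnamed loci led the order of margins. AT1G65500 had 3.18, 2.31, 8.07 and 8.11, so both salicylic acid arrays lay at least 4.89 above the higher untreated array. Its difference was 5.34 (SE 0.48; limma adjusted p = 0.438). AT3G18250 had 2.45, 2.86, 7.19 and 9.01, and AT5G39520 had 2.83, 2.2, 6.93 and 8.49. In both, replicate 2 lay more than 1 unit above replicate 1. AT2G37130 had 2.31, 2.05, 6.76 and 6.22, a difference of 4.31 (SE 0.48; limma adjusted p = 0.592) from near-background values. AT1G35210 had 2.61, 3.93, 7.04 and 8.42, and AT2G29500 had 3.04, 3.23, 6.19 and 7.23.

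CHI, STZ and the peroxidase gene AT5G64120 were also among the 10 largest margins. CHI (AT2G43570), a chitinase gene of the kind that attacks fungal cell walls, had 2.44, 5.20, 8.82 and 11.42, a difference of 6.30 (SE 1.51). AT5G64120, which encodes peroxidase 71, had 2.94, 4.88, 7.76 and 8.23. STZ (ZAT10), a zinc finger repressor of stress signalling, had 3.95, 7.54, 10.71 and 11.47, a difference of 5.34 (SE 1.2). In all 3 genes untreated replicate 2 lay above untreated replicate 1.

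JRG21, GH3.3, UGT76B1 and ARL were among the shared loci with a gene name. JRG21, named as jasmonate-regulated, had 2.97, 2.99, 9.21 and 5.28. It was the shared gene with a name in which replicate 1 lay furthest above replicate 2. GH3.3, an enzyme that conjugates auxin to amino acids, had 2.90, 4.94, 7.17 and 9.36. UGT76B1, a glycosyltransferase that acts on salicylic acid and on immune signals, had 2.13, 2.15, 3.59 and 5.91, a difference of 2.61 (SE 0.99), with both untreated values near background. ARL, a regulator of organ growth, had 4.99, 5.75, 6.97 and 8.03. These genes, and the named genes of the next paragraphs that the margin rule did not pick, were chosen after their values were seen.

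A pair of subtilisin-like proteases, of a family grouped after its values were seen, was shared. SBT3.3, a protease of immune priming, had 3.37, 3.45, 5.49 and 7.54, and SBT3.5 had 5.22, 5.77, 6.90 and 6.89. They lie with 1 protein-coding gene between them in the TAIR10.1 order. The other 6 measured subtilase genes of the SBT series were not shared, and SBT1.3 was lower on replicate 2 alone. Thus 2 of 8 were shared higher, beside 0.87% of all probe sets. Of the 8, 4 lay above 0 and 4 below, with a median difference of 0.005. AT4G27652, AT4G27654 and AT4G27657 stood in a row on the chromosome and were all shared. Of these, AT4G27657 had 2.55, 2.26, 7.90 and 5.85. AT4G39670 and AT4G39675 were also direct neighbours, and AT1G72920 and AT1G72940 had 1 protein-coding gene between them.

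WRKY6, SAG29, CCOAMT, SRC2, SIS, ZCF37 and AR781 were the other shared loci with a gene name. WRKY6, a transcription factor of senescence and pathogen response, had 2.58, 3.66, 4.74 and 6.66, a difference of 2.58 (SE 0.80). SAG29, a sugar transporter of senescing leaves, had 2.11, 2.8, 3.84 and 4.55, a difference of 1.73 (SE 1.56). They are the 2 measured of 13 listed senescence genes, and both were shared, beside 0.87% of all probe sets. WRKY53, also known from senescence but listed elsewhere, was higher on replicate 2 alone and is described below. CCOAMT, a methyltransferase named for lignin precursors, had 3.27, 2.87, 4.96 and 5.83. SRC2, a C2 domain protein, had 9.73, 10.83, 11.84 and 12.78. SIS, ZCF37 and AR781 differed by 2.77, 2.84 and 1.82.

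Genes lower on both arrays were fewer and differed by less. A filter dropped probe sets whose mean over all 8 arrays lay below the median. It kept 11 of the 49, against 178 of the 198 shared higher. That mean includes the salicylic acid arrays, which by definition lay low in the first group and high in the second. On the untreated arrays the median level was 5.25 for the shared lower and 3.71 for the shared higher. The median distance of the 49 from the untreated mean was -1.43 on replicate 1 and -2.16 on replicate 2, against 2.14 and 3.29 for the 198 shared higher, and none of the 49 passed a margin of 2 where 58 of the 198 did. AT3G48490 had 7.18, 6.96, 5.38 and 4.02, the largest margin. TBL36, of a family that acetylates cell wall polysaccharides, had 7.14, 6.80, 5.12 and 5.28, a difference of -1.77 (SE 0.20; limma adjusted p = 0.592). ATCSLC08, a synthase of the xyloglucan backbone, had 5.33, 5.34, 4.19 and 3.14. Both wall genes had close values on the untreated arrays.

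The other named loci lower on both arrays were PRL, ASF1B and ACLA-2. PRL, the MCM7 subunit of the replicative helicase, had 5.29, 3.84, 2.67 and 2.49, a difference of -1.99 (SE 0.75). ASF1B, a histone chaperone, had 4.17, 3.54, 2.54 and 2.53, close to background with salicylic acid. ACLA-2, a subunit of ATP-citrate lyase, which makes cytosolic acetyl-CoA, had 6.52, 7.01, 5.47 and 5.51, a difference of -1.27 (SE 0.20). The unnamed loci AT1G29980, AT1G03020, AT2G46630, AT5G41140 and AT3G06035 differed by between -1.45 and -2.2.

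**Figure D2:**
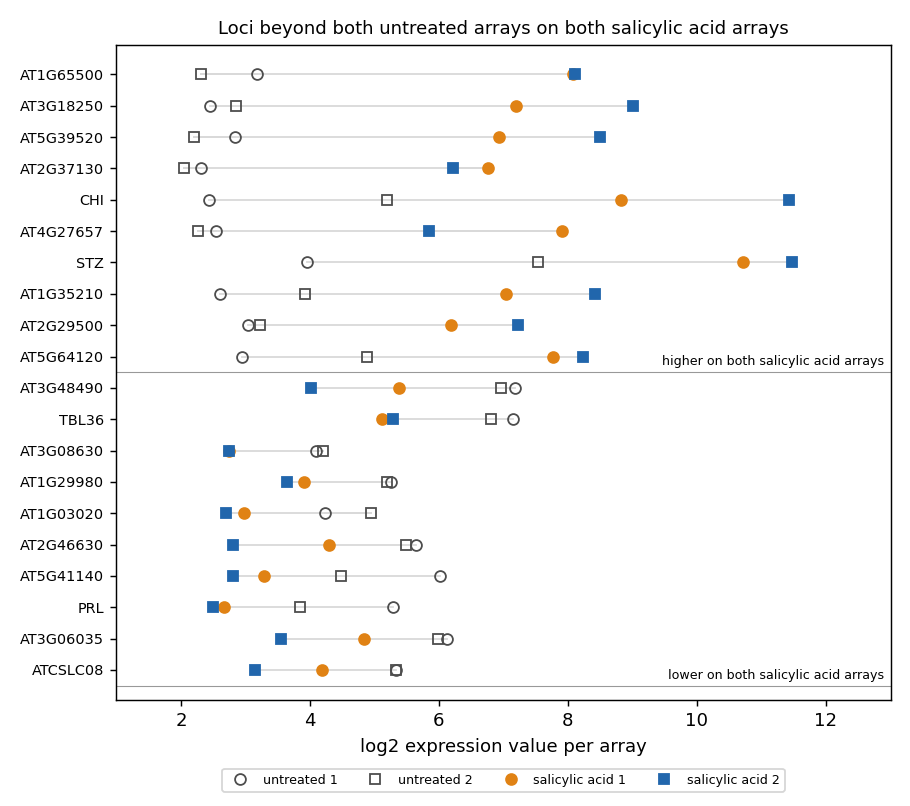
Deposited log2 values on the x axis for the 10 loci with the largest margin in each direction, with open symbols for the untreated and filled symbols for the salicylic acid arrays. By the selection, all filled symbols lie right of the open ones in the upper 10 loci and left of them in the lower 10. The untreated arrays are furthest apart in STZ, at 3.95 and 7.54.

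Of the 5 measured of 19 listed flavonoid and anthocyanin genes, 3 were higher on replicate 1 alone, beside 0.497% of all probe sets. DFR, dihydroflavonol reductase, had 2.17, 2.19, 7.56 and 2.16. UF3GT, an anthocyanin glycosyltransferase, had 2.42, 2.53, 6.11 and 2.83, and AT4G14090, a locus of the same list, had 2.23, 2.22, 5.00 and 2.69. These 3 were near background on both untreated arrays and lay below 3 on salicylic acid replicate 2. On clothianidin replicate 2 their values were 4.85, 4.62 and 4.57. The other measured members, UGT78D2 at 6.46, 5.88, 6.74 and 5.84 and AT5MAT at 2.2, 2.22, 2.32 and 2.19, did not pass the margin. The median of the 5 was 2.78 on replicate 1 and -0.02 on replicate 2, beside -0.02 on both arrays over all probe sets.

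PYK10, NAI2 and several jacalin-related lectins, chosen after their values were seen, act in the endoplasmic reticulum bodies, which store defence enzymes, or with their contents. PYK10, the beta-glucosidase of these bodies, stood at 9.09 on salicylic acid replicate 1 and between 4.49 and 5.92 on the other 3 arrays. NAI2, a protein needed to form the bodies, had 4.18, 4.74, 6.50 and 3.96. The jacalin-related lectins JAL22 and JAL34, partners of PYK10, had 2.60, 2.81, 4.76 and 2.78, and 7.32, 7.88, 9.13 and 6.89. In these 4 genes replicate 1 was the high array, and replicate 2 lay below the untreated arrays or between them. Of the other measured lectins of the JAL series, JAL23 had 4.16, 5.96, 7.44 and 6.67, above both untreated arrays on both replicates and past the margin on replicate 1, and JAL33 had 2.54, 2.56, 3.42 and 2.49 and passed on neither. ORA47, a regulator of jasmonate synthesis and also higher on replicate 1 alone, had 6.27, 4.86, 10.27 and 6.73. OSM34, an osmotin-like protein, had 2.21, 2.34, 7.58 and 2.29, and AT4G12490 had 2.42, 2.46, 8.29 and 2.40, the largest margin of this group. BHLH101, a regulator of iron uptake, had 2.44, 2.61, 5.53 and 2.29, and WRKY22 had 2.26, 2.88, 5.26 and 3.13.

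Of the 20 probe sets lower on replicate 1 alone, 1 passed a margin of 2. AT5G05960 had 7.22, 7.89, 4.92 and 7.15, the largest margin among the named loci of this group, at 2.29. AT4G34560 had 5.46, 6.04, 3.85 and 5.15, and MEF8S, an RNA editing factor of mitochondria, had 4.17, 3.94, 2.71 and 4.35. AT1G05210 and AT2G24440 were the next by margin.

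The loci with the largest margins on replicate 2 alone lay far above the other 3 arrays. AT4G00700 had 1.89, 1.90, 2.05 and 10.95. MSRB9, a methionine sulfoxide reductase, had 1.83, 1.99, 1.98 and 9.55. AT3G01830 had 2.19, 3.35, 3.31 and 10.15, and cwINV6, of the cell wall invertase family, had 2.29, 2.82, 2.29 and 9.48. By the definition of the group, salicylic acid replicate 1 lay inside or within 0.5 of the untreated range in these 4 loci. LUP5, a triterpene synthase, had 2.46, 2.50, 2.84 and 8.53, and CCR2, a reductase of phenylpropanoid synthesis, had 2.87, 3.82, 3.24 and 7.23.

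Glutamate receptor-like channels and calmodulin-like calcium sensors were 2 families with members in this group, the first chosen after its values were seen. Of 8 measured glutamate receptor-like genes, 4 were higher on replicate 2 alone, beside 5.94% of all probe sets, and none was shared. GLR2.8 had 2.65, 2.60, 2.51 and 7.34, GLR2.7 had 5.98, 6.52, 6.21 and 10.22, and GLR1.4 had 3.74, 5.04, 3.92 and 8.54. Of 7 measured calmodulin-like genes, 4 were higher on replicate 2 alone, beside the same 5.94%, 1 (CML23) on replicate 1 alone, and CML42 had the arrays on opposite sides. CML41, which had the largest margin of these, had 2.21, 3.38, 3.73 and 9.90. CML38 had 5.02, 8.44, 8.89 and 10.31, CML37 had 2.57, 2.72, 2.85 and 6.46, and CML43 had 2.24, 2.28, 2.2 and 4.84. The median of the 7 was 0.21 on replicate 1 and 2.58 on replicate 2, against -0.02 on both arrays over all probe sets.

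The genes lowest on replicate 2 alone were otherwise well above background. AT5G44020 had 10.90, 11.39, 10.81 and 3.53, MSRB6, another methionine sulfoxide reductase, had 11.32, 10.53, 10.07 and 3.58, and BZIP61, a transcription factor, had 8.73, 7.74, 7.85 and 2.89. AT2G10940 had 11.81, 9.36, 10.37 and 3.05, and AT5G16030 had 11.91, 8.89, 11.43 and 3.86. In these 5 genes salicylic acid replicate 2 lay at least 4 below the lowest of the other 3 arrays. STOMAGEN, CSLA03, TUB5 and a pair of sugar transporters, chosen after their values were seen, were also lower on this array alone. STOMAGEN, a peptide that raises stomatal density, had 8.93, 6.62, 7.75 and 3.45, CSLA03, a glucomannan synthase, had 7.31, 7.70, 7.28 and 3.08, and TUB5, a beta-tubulin, had 10.45, 9.94, 10.14 and 6.80. The vacuolar sugar transporters SWEET16 and SWEET17 had 6.04, 6.63, 5.69 and 3.25, and 8.81, 8.11, 8.49 and 6.26.

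**Figure D3:**
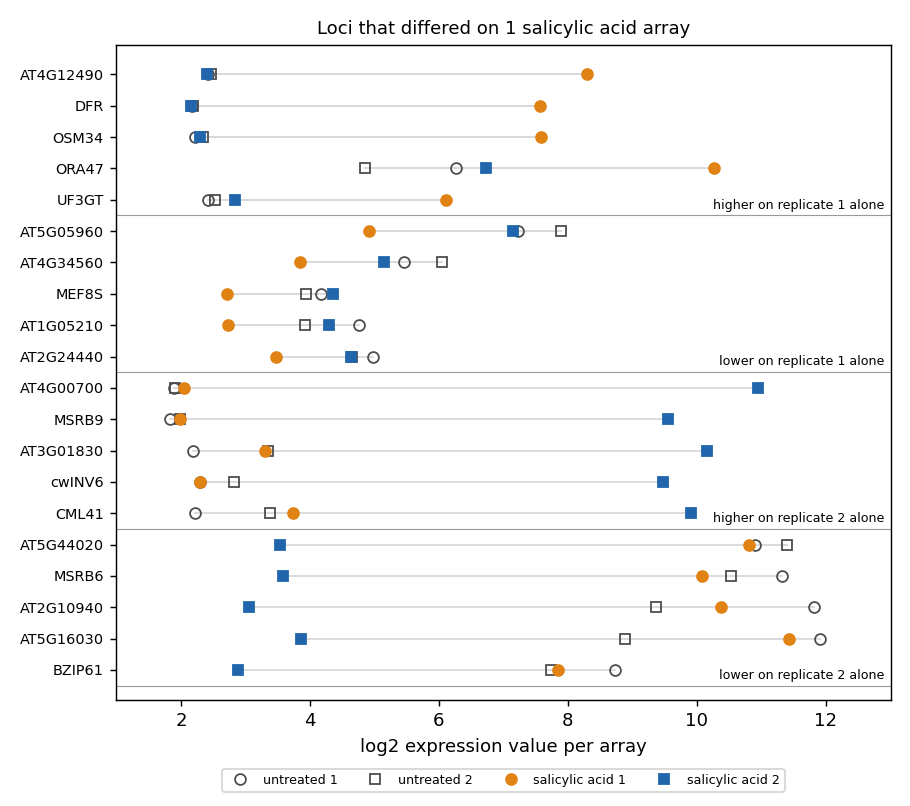
Deposited log2 values on the x axis for the 5 loci with the largest margin in each of the 4 groups that passed it on 1 salicylic acid array. A single filled symbol stands apart from the other 3 symbols in each row, by the longest distance in AT4G00700, at 10.95 against values between 1.89 and 2.05.

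Photosynthesis genes of the nucleus separated the replicates. The 8 measured of 42 listed genes had a median difference from the untreated mean of 0.26 on replicate 1, where 8 of 8 lay above 0 beside 7402 of all 22746 probe sets, and of -1.69 on replicate 2, where 0 of 8 did beside 8189. Against the untreated array of the same number the medians were -0.03 and -1.45, since untreated replicate 2 lay below untreated replicate 1 in all 8 genes. PORB, an enzyme of chlorophyll synthesis, had 12.84, 11.15, 12.36 and 9.58, and SBPASE, of the Calvin cycle, had 12.41, 11.65, 12.28 and 9.79. The light-harvesting gene LHCB4.2 had 14.69, 14.23, 14.72 and 12.64, and the photosystem I gene PSAN had 13.92, 13.22, 13.92 and 11.47. These 4, with PRK and LHCB4.1, were lower on replicate 2 alone, 6 of 8 beside 5.73% of all probe sets. That share includes dim probe sets, and bright genes were more often in this group. Its median untreated level was 8.39, against 4.41 for probe sets past the margin on neither array. RCA, Rubisco activase, had 14.29, 13.96, 14.37 and 13.22, and together with PSAE-1 it did not pass the margin. Other chloroplast genes chosen after their values were seen had the same form: CHLM, of chlorophyll synthesis, had 11.84, 10.78, 11.60 and 8.89, CaS, a thylakoid calcium sensor, had 11.88, 11.02, 11.81 and 8.93, and the thylakoid ascorbate peroxidase TAPX had 9.92, 8.91, 9.53 and 6.94. The actin difference given above was higher on replicate 2, and its part in this result was not tested.

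Genes of the plastid genome lay lower by less. Of 69 measured, 63 were below 0 and 6 above in the mean difference, with a median of -0.51 where the median of all probe sets was -0.02 and 63.9% lay below 0. The median was -0.18 on replicate 1 and -0.75 on replicate 2, 23 genes were lower on replicate 2 alone, beside 5.73% of all probe sets, and none was shared. Dim probe sets are again part of that 5.73%. The largest differences were those of the ribosomal protein genes rpl16, with 13.09, 11.79, 11.72 and 9.98, and rps14, with 9.24, 8.84, 8.89 and 6.32. Other ribosomal protein genes differed little, such as rpl32 at -0.04 and rpl33 at -0.11. psaJ, a photosystem I subunit, had the smallest p of the 69, with 12.66, 12.68, 12.17 and 11.92, a difference of -0.62 (SE 0.11; limma adjusted p = 0.876). psbA, the D1 protein of photosystem II, had the largest difference of the 6 above 0, at 14.01, 14.17, 14.07 and 14.58. At an unadjusted p under 0.05 there were 8 of the 69, beside 3.38% of all probe sets.

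Genes of the salicylic acid pathway could be followed only where the annotation table, which did not list 8730 probe sets, named them. None of the 10 listed synthesis genes had a single-gene probe set in that table. Neither had any listed camalexin, jasmonate or heat shock gene, which does not show that the array lacked them. Of 23 listed genes of perception and transcription, GRX480 and WRKY53 were measured. The 2 were higher on replicate 2 alone, beside 5.94% of all probe sets. GRX480, a glutaredoxin that binds TGA factors, had 3.39, 8.47, 7.15 and 10.10. WRKY53, a transcription factor of senescence and defence, had 3.75, 6.89, 6.44 and 12.67. In both genes the untreated arrays differed by over 3 units, and salicylic acid replicate 1 lay between them.

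Of 10 listed genes that modify salicylic acid, 5 were measured, 2 above 0, with a median difference of -0.01, near that of all probe sets. UGT76B1, described above, was shared. WES1, a GH3 enzyme that conjugates salicylic acid and auxin to amino acids, had 2.8, 2.74, 3.80 and 3.38. The methyltransferase BSMT1 had 2.33, 2.33, 2.32 and 2.32, and the glucosyltransferase UGT74F1 had 2.55, 2.56, 2.52 and 2.50, so neither was measured clearly above background on any of the 4 arrays. UGT71C3 lay between 2.25 and 2.29.

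The 3 measured of 20 listed immune signalling genes had a median of 0.27 on replicate 1 and 2.12 on replicate 2. BIK1, a kinase that relays signals from immune receptors, had 6.36, 6.64, 7.36 and 8.62, a difference of 1.49 (SE 0.45), with both salicylic acid arrays above both untreated arrays. SAG101, a partner of EDS1, had 3.31, 5.64, 4.74 and 6.86, and EFR, the receptor for bacterial elongation factor, had 3.04, 4.73, 3.13 and 5.94. Both were higher on replicate 2 alone, beside 5.94% of all probe sets. The pathogenesis-related list held 2 measured of 8, the jasmonate-linked PDF1.2 at 3.36, 3.04, 4.01 and 2.77 and THI2.1 at 2.38, 2.39, 2.41 and 2.48. AT5G52810, the 1 measured of 3 loci listed for pipecolate, had 4.97, 6.40, 5.70 and 8.65.

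Other listed stress genes went different ways. BZIP60, a transcription factor of the unfolded protein response, had 7.80, 8.58, 8.07 and 10.24, higher on replicate 2 alone, while BZIP28 and CRT1b, the other measured of 11 endoplasmic reticulum genes, passed the margin on neither array. Of 18 listed abscisic acid and cold genes 4 were measured, with a median difference of -0.24. COR15B, a cold-regulated chloroplast protein, had 12.04, 13.13, 12.11 and 10.56, lower on replicate 2 alone. LTI30, a dehydrin, had 5.43, 8.19, 7.09 and 9.82, higher on that array, and COR15A and COR47 differed by -0.73 and 0.26. BCAT4, of glucosinolate synthesis, had 11.04, 11.41, 12.43 and 10.49, above the untreated arrays on replicate 1 and below them on replicate 2. UGT74B1, the other measured of 10 glucosinolate genes, had 10.17, 10.58, 10.23 and 11.36.

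**Figure D4:**
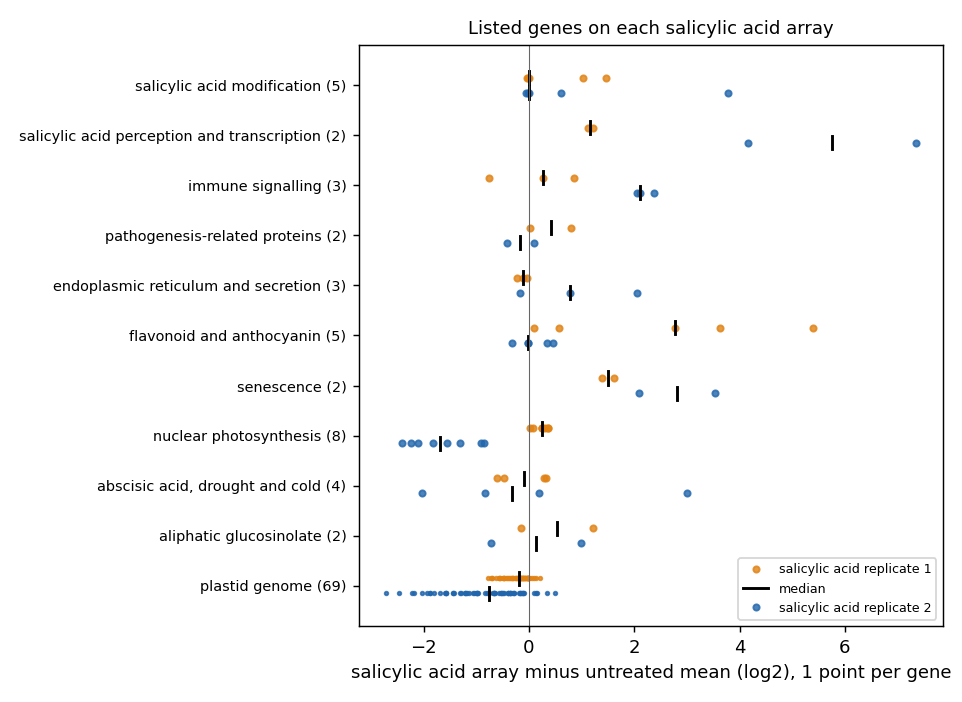
Each point is a listed gene with its log2 difference from the untreated mean on the x axis, orange for salicylic acid replicate 1 and blue for replicate 2, with black bars for medians and the number of measured genes in brackets. The medians of the nuclear photosynthesis genes lie at 0.26 and -1.69, those of the flavonoid genes at 2.78 and -0.02, and both senescence genes lie right of 0 on both arrays.

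The 6 measured WRKY transcription factors fell into 4 groups. WRKY6 was shared, WRKY22 was higher on replicate 1 alone, WRKY53 and WRKY47 on replicate 2 alone, and WRKY20 and WRKY42 passed the margin on neither. Over all probe sets these 4 groups held 0.87%, 0.497%, 5.94% and 85.0%. WRKY47 had 2.48, 3.26, 3.57 and 7.45. Among 47 measured UDP-glycosyltransferases, 22 lay above 0 with a median of -0.01, and UGT76B1 was the 1 shared gene. On replicate 2 alone 4 of the 47 were higher and 4 lower, near the 5.94% and 5.73% of all probe sets. UGT87A2 had 6.62, 7.25, 7.56 and 11.31, and UGT73B5 had 4.1, 4.43, 4.54 and 7.56, both higher on that array. UGT76C2, a cytokinin glucosyltransferase, had 6.29, 4.89, 5.34 and 3.38. UGT73B1 was higher on replicate 1 alone, at 6.05, 5.92, 7.69 and 6.32.

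The same probe sets were read on the insecticide arrays, with differences taken against the same untreated arrays, which the comparisons share. The 198 shared higher probe sets had a median difference of 2.87 and 1.89 on clothianidin replicates 1 and 2 and of 4.39 and 4.34 on the imidacloprid arrays, beside 2.14 and 3.29 with salicylic acid. The 49 shared lower had medians of -1.29 and -1.35 with clothianidin and -1.88 and -1.87 with imidacloprid. The 1304 lower on salicylic acid replicate 2 alone had medians of -0.45 and -0.84 with clothianidin and of -1.81 and -1.90 with imidacloprid, where salicylic acid replicate 1 had 0.00. The 113 higher on replicate 1 alone had 1.17 and -0.02 with clothianidin and 0.92 and 0.36 with imidacloprid. For single genes the insecticide values could lie beyond those of salicylic acid. UGT76B1 stood at 9.22 and 10.93 with imidacloprid and at 3.72 and 2.65 with clothianidin. AT1G65500 stood at 7.35 and 6.78 with clothianidin and at 7.16 and 6.12 with imidacloprid, below both of its salicylic acid values.

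**Figure D5:**
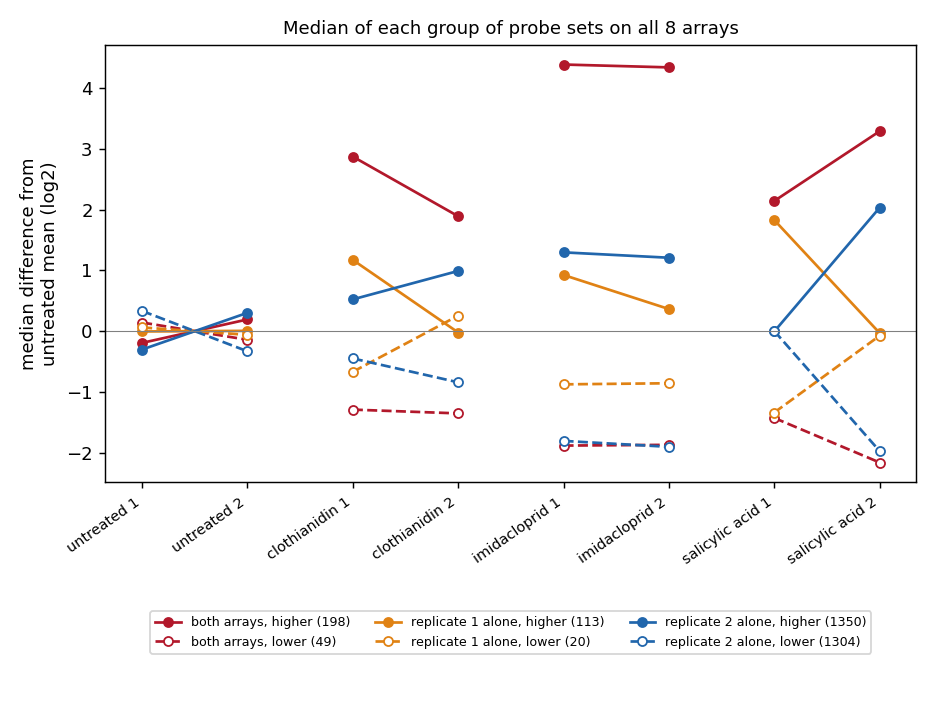
The y axis gives the median log2 difference from the untreated mean on each of the 8 arrays for the 6 groups of probe sets, filled for higher and open for lower, with lines joining the replicates of a treatment. The groups were defined on the untreated and salicylic acid arrays, and the shared higher group lies between 1.89 and 4.39 on all 6 treated arrays.

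Calls appeared in limma when 1 of 2 arrays was left out. Without salicylic acid replicate 1, 37 probe sets passed, 32 higher and 5 lower, each resting on replicate 2 as the lone array of its treatment, assumed to vary like the other groups, and at 27 of them replicate 1 lay inside the widened untreated range. AT4G00700 differed by 9.06 there and CML43 by 2.58. Without untreated replicate 2, 82 passed, 4 higher and 78 lower. At 78 of these 78, untreated replicate 1 lay above all 7 other arrays, untreated replicate 2 included, and at 71 untreated replicate 2 lay within 0.5 of the salicylic acid mean. STZ was among the 4 higher, at 7.14 (SE 0.38). Leaving out any of the other 6 arrays gave 0 calls.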

How the data were processed

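Total RNA of whole leaves was hybridised to 8 Affymetrix arrays, 2 per group. The authors deposited log2 values, 1 per probe set and array, and the submitters' processing notes name RMA and affy without versions. Whether background was subtracted or genes were centred is not given in the sources used here, and either would affect dim values most. A probe table and the TAIR10.1 annotation, joined by gene identifier, supplied gene names. The table listed 14016 probe sets, with several genes at 503, and did not list 8730. No coordinates or sequences are given, and promoter motifs were not analysed here. The number of arrays limits the precision.

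A model with a mean per group was fitted to all 8 arrays by lmFit and eBayes of limma (version 3.58.1, under R 4.3.3; 4 residual degrees of freedom, prior 0.766), and salicylic acid minus untreated was tested, two-sided. In data simulated for this comparison over 22746 probe sets, 17, 16, 34 and 41 of 50 probe sets each with a log2 change of 1, 2, 4 and 6 were called. The simulation drew independent noise for each array, without the differences between whole arrays described above. Its counts check the code and do not show how often real changes of these sizes would be called here. The rule named the 10 largest margins shared in each direction, the 5 largest of each single-replicate group, the 5 smallest p in each direction, up to 4 members of a list with 2 or more measured and the 3 largest margins in each direction of a family described. For a locus with several probe sets the brightest stood. Of 233 loci in 16 lists, 38 were matched to a single-gene probe set. The comparison, lists and rule were chosen with earlier results of these data known. Mitochondrial genes matched no locus. Alternatives were other priors, a replicate block, scalings, a dim filter, other margins, comparison within replicate number and leaving out arrays. Descriptions and figures used Python 3.11.15 and matplotlib 3.10.9.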

Additional observations from a re-analysis of the deposited data

How the results depend on the processing

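The count of limma calls was 0 under every alternative fit or scaling run, and with arrays left out 1 at a time it ran from 0 to 82. At an unadjusted p under 0.05 the 768 probe sets became 404 when dim probe sets were left out, and ran from 709 to 3338 with arrays left out, the highest without salicylic acid replicate 1. The labels do not tie a replicate number to an experiment, and 2 numbers are too few for the check of pairing by correlation, so the numbers were not taken as pairs. With the number as a replicate block, limma called 0 and 1146 passed the unadjusted threshold. Replicate differences of the untreated and salicylic acid pairs correlated at 0.523 across probe sets, the highest of the pairs of groups. Those of the clothianidin pair correlated with these at 0.302 and 0.361, and those of the imidacloprid pair at 0.055 and -0.002.

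The shared counts of 198 higher and 49 lower became 421 and 263 with a margin of 0.5, 58 and 0 with a margin of 2, and 550 and 255 within replicate number. With untreated arrays left out, an alternative added after seeing the data, they ran from 325 to 774 and from 287 to 735. The counts for replicate 1 alone, 113 higher and 20 lower, became 371 and 249 with a margin of 0.5, 28 and 1 with a margin of 2, and 220 and 359 within replicate number, and ran from 134 to 373 and from 60 to 297 with untreated arrays left out. Those for replicate 2 alone, 1350 and 1304, became 2807 and 2543 with a margin of 0.5 and 433 and 313 with a margin of 2, and the lower count ran from 851 to 1464. Without dim probe sets 178 were shared higher and 11 shared lower, and 63 and 10 were higher and lower on replicate 1 alone. The shared lower group lost a larger part than the shared higher group. The filter used the mean over all 8 arrays, treated ones included, so this loss depends on the direction of a group. Centring on medians gave 1109 higher and 1602 lower on replicate 2 alone. Of all probe sets, 36.1% lay above 0 as deposited, 30.6% after centring and 48.3% after quantile normalization was repeated, so shares near these say little.

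Named genes whose mean difference changed sign did so mostly when a salicylic acid array was left out. With arrays left out, the log2 difference ran as follows: AT4G12490 -0.0455 to 5.85, DFR -0.0158 to 5.38, MEF8S -1.34 to 0.29, cwINV6 -0.27 to 6.93, AT5G16030 -6.54 to 1.04, UGT71C3 -0.0256 to 0.00368, EFR -0.76 to 2.05, PDF1.2 -0.42 to 0.81, BZIP60 -0.12 to 2.05, BZIP28 -0.23 to 0.77, CRT1b -0.72 to 0.52, UGT78D2 -0.33 to 0.56, PORB -2.41 to 0.36, SBPASE -2.24 to 0.25, PSAN -2.10 to 0.35, LHCB4.2 -1.82 to 0.26, COR15A -1.54 to 0.0892, COR47 -0.24 to 0.75, UGT74B1 -0.15 to 0.98, BCAT4 -0.73 to 1.21, CML30 -0.41 to 0.0754, CML23 -0.12 to 1.95, CML43 -0.0606 to 2.58, petB -0.0129 to 0.35, psbA -0.0135 to 0.50, PYK10 -0.77 to 3.83, NAI2 -0.51 to 2.04, JAL34 -0.71 to 1.53, BHLH101 -0.23 to 3.01, GLR2.8 -0.12 to 4.72, GLR2.7 -0.0419 to 3.97, GLR1.4 -0.47 to 4.16, CCR2 -0.11 to 3.88, CaS -2.52 to 0.37, TAPX -2.48 to 0.12, CHLM -2.41 to 0.30 and SWEET17 -2.20 to 0.0348. Under repeated quantile normalization UGT71C3, WRKY42 and UGT76E1 turned to 0.0118, 0.00163 and 0.00640, and under centring THI2.1 turned to -0.00703, all near 0. Where an array was left out the change of sign is in the construction, since the mean of its group then rested on the other array alone. For the changes under the scalings the cause was not tested.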
